A study of Rattus norvegicus with 6 samples.

Results

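H4K8la and H4K16la are lactylations of 2 lysines on the same histone H4 tail, and here their peaks are compared in rat tenocytes that received no lactate. The peaks compared are all 102028 entries of the 2 control lists, 61347 for H4K8la and 40681 for H4K16la, out of 315825 peaks in the 6 lists of the series. Tenocytes are the fibroblast-like cells of tendon. The series profiled H3K9la, H4K8la and H4K16la by CUT&Tag, in which an antibody guides a transposase to marked chromatin, in wild-type tenocytes of tendon grown in 1640 medium. Each mark has 1 library without treatment and 1 library with 20 mM lactate. Both libraries compared here carry the entry none for treatment and a control title, and groups follow these labels, although a protocol field common to the series mentions 20 mM lactate without exception. No replicate of either mark exists, so no test between the marks was made, and every interval is a 95% interval that covers counting error only.

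The H4 tail leaves the nucleosome core and is modified at several lysines. As background, lactylation places a lactyl group on a lysine that can otherwise be acetylated, p300 has been described as an enzyme that writes it, and class I histone deacetylases as enzymes that remove it. Acetylation of H4K16 is known to weaken the packing of neighbouring nucleosomes. Whether the lactylated forms act alike is not addressed by peak lists. Positions are of build rn7, with 1 as the first base of a chromosome. Genes, exons and sequences of the regions were not analysed here, and the tenocyte label could not be set against marker genes.

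H4K8la was called at more and wider regions than H4K16la. The log2 ratio of peak numbers, H4K8la over H4K16la, was 0.59 (0.57 to 0.61). H4K8la peaks covered 36.5 Mb, or 1.39% of the 2632 Mb that reach from each chromosome's start to its last peak in the 6 lists, and H4K16la peaks covered 20.96 Mb, or 0.796%. The excess was larger among strong peaks, where strength is the peak caller's −log10 q. With −log10 q of 5 or more, 18522 H4K8la peaks and 9841 H4K16la peaks remained, and with 10 or more 4465 and 2110, a log2 ratio of 1.08. The read totals of the libraries were not used. The genome-wide background coverage, recovered from the columns of each list, was 1.32 for H4K8la and 1.53 for H4K16la, a ratio of 1.16. This level is inferred from fold and p and is not a measured depth. With the H4K16la pileups scaled to the H4K8la background, 56370 H4K8la and 35655 H4K16la peaks had −log10 p of at least 4, a log2 ratio of 0.66. Without scaling 38562 H4K16la peaks passed the same limit, a log2 ratio of 0.55. The part of depth in the difference in peak numbers was not tested.

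The H4K8la peaks had a median width of 494 bp (quartiles 371 and 706) and the H4K16la peaks one of 456 bp (362 and 602), a difference of 38 bp. It was 19 bp without peaks whose local background was at least 4 times the genome-wide one, a setting added after seeing the data. Peaks of 1 kb or more made up 11.1% of the H4K8la list and 3.75% of the H4K16la list. The gap in width grew once equal numbers of the strongest peaks were taken. Among the 5000 strongest of each list the medians were 961 bp for H4K8la and 678 bp for H4K16la, a difference of 283 bp. Equal numbers were not equal strength, since these H4K8la peaks reached down to −log10 q 9.60 and these H4K16la peaks to 7.05. With −log10 q of 5 or more in both lists the difference was 144 bp. Among the 100 strongest of each list the medians were 980.5 and 854 bp. H4K8la was the wider at each of the 9 list lengths compared, from 100 peaks to 40681, and the quartile ranges overlapped at each of them.

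**Figure D1:**
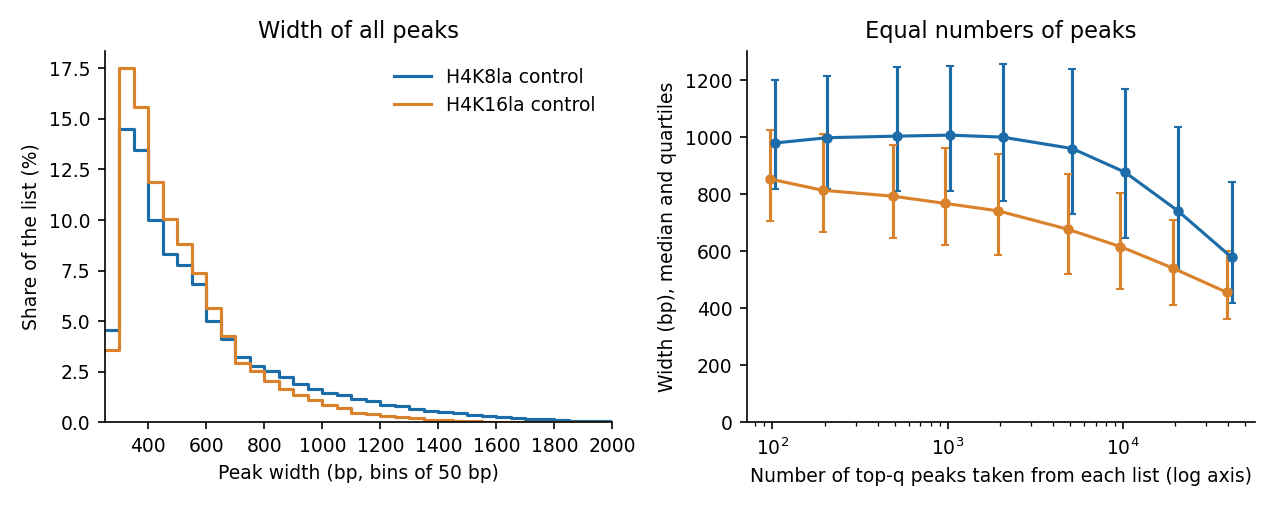
Left, share of each control list in 50 bp bins of peak width; right, median width in bp with quartiles (bars) for equal numbers of top-q peaks on a log axis. H4K8la (blue) has the longer tail of wide peaks, 11.1% at 1 kb or more against 3.75% for H4K16la (orange), and the wider median at all list lengths shown.

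The widest H4K8la peak lay on chromosome 9 from 60185307 to 60188199 (2893 bp, −log10 q 8.49). Chromosome 13 from 84979442 to 84982288 (2847 bp) came next, followed by chromosome 15 from 28400255 to 28403028 (2774 bp). All 3 overlapped an H4K16la peak and an H3K9la control peak. The 3 widest H4K16la peaks were all on chromosome 1, from 34120552 to 34123496 (2945 bp, −log10 q 12.7), from 67098776 to 67101065 (2290 bp) and from 58672900 to 58675146 (2247 bp), and each overlapped an H4K8la peak and an H3K9la control peak. The single widest H4K16la peak was thus wider than any H4K8la peak, although the list as a whole was narrower.

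H4K8la peaks also stood more often in stretches of raised local background, the level the caller compares each summit with. Whether this level came from the same library or from an IgG control is not stated. It was at least 4 times the genome-wide one at 14.6% of H4K8la peaks and at 2.28% of H4K16la peaks. H3K9la control resembled H4K8la here, with 13.9%, while the 3 lactate lists had between 0.225% and 2.59%. Peaks up to 5 kb apart in the same list formed runs, and 4.50% of H4K8la peaks lay in runs of 3 or more, against 0.794% for H4K16la. Of the 40681 strongest H4K8la peaks 4.85% lay in such runs. Runs were formed on the full list, weaker peaks included, so this share does not adjust for list length. The longest run held 10 H4K8la peaks, and the longest H4K16la run held 7.

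Merging the 2 lists gave 84033 regions. Of these, 51.8% (43512) had an H4K8la peak only, 27.2% (22819) an H4K16la peak only and 21.1% (17702) a peak of both marks. Peaks were called shared when they overlapped by 1 bp or more. H4K16la was found at 17835 H4K8la peaks, 29.1% of that list (Wilson interval 28.7 to 29.4), and H4K8la at 17862 H4K16la peaks, 43.9% (43.4 to 44.4). With both lists held to 40681 peaks the shares were 39.2% and 39.4%. Of the regions with both marks, 98.4% held exactly 1 peak of each. An H4K8la peak spanned 2 or more H4K16la peaks in 155 regions, and the reverse was seen in 129.

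Sharing followed peak strength closely. In the strongest of 10 equal bins by −log10 q, 80.9% of H4K8la peaks and 92.7% of H4K16la peaks had a partner somewhere in the other list. In the weakest bin 6.94% and 15.4% did. All of the 100 strongest H4K8la peaks overlapped an H4K16la peak, and 99 of the 100 strongest H4K16la peaks overlapped an H4K8la peak. At −log10 q of 10 or more, 629 of 4465 H4K8la peaks and 74 of 2110 H4K16la peaks lacked a partner, so 85.9% (84.9 to 86.9) and 96.5% (95.6 to 97.2) had one.

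**Figure D2:**
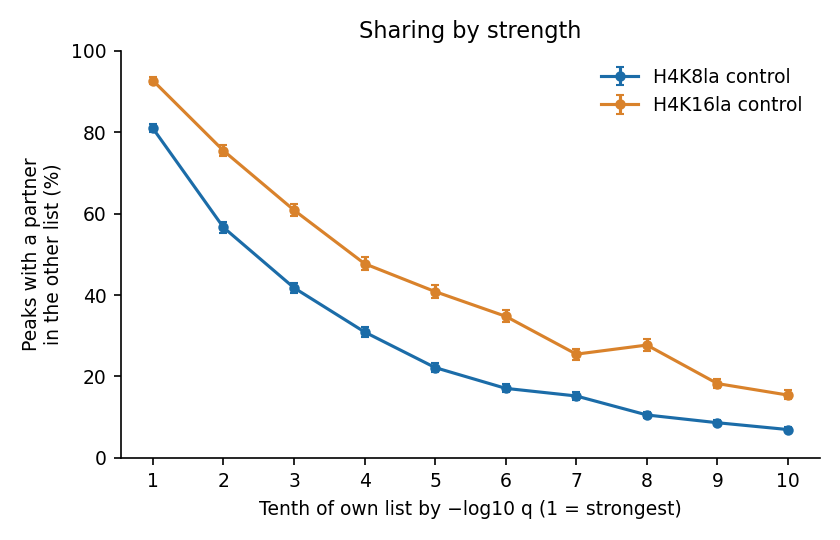
Share of peaks (%) that overlap a peak of the other control list, for 10 equal bins of each list from strongest (1) to weakest (10), with Wilson 95% intervals. The share falls from 80.9% to 6.94% for H4K8la (blue) and from 92.7% to 15.4% for H4K16la (orange).

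The partners were often not of equal standing. Of the 1000 strongest H4K8la peaks 958 had an H4K16la partner, but 404 had one among the 1000 strongest H4K16la peaks, and the median partner ranked 1399.5. Seen from the other side, 985 of the 1000 strongest H4K16la peaks had a partner, with a median rank of 1463. The share common to both top lists was 47.8% (46.8 to 48.8) at 10000 peaks, 45.9% at 5000 and 40.4% (37.4 to 43.5) at 1000. Most of the strongest sites of either mark were thus sites of both, but with different ranks in the 2 libraries. Most were also H3K9la sites. At −log10 q of 10 or more, the 40681 strongest H3K9la control peaks overlapped 93.1% of shared H4K8la and 95.6% of shared H4K16la peaks. For single-mark peaks of that strength the shares were 69.2% and 62.2%.

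Local coverage and width went with sharing as well. Where the local background equalled the genome-wide one, 7.11% of 10977 H4K8la peaks and 10.0% of 4839 H4K16la peaks were shared. Where it was at least 4 times higher, 46.3% of 8981 and 84.8% of 929 were. Among H4K8la peaks narrower than 400 bp 12.5% were shared, and among those of 1 kb or more 71.6%. For H4K16la these shares were 27.3% and 89.8%. Width, strength and local background rise together in these lists, and their separate parts in the sharing were not tested.

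Shared and single-mark peaks differed in size in both lists. Shared H4K8la peaks had a median width of 730 bp, a median fold of 4.43 over local background and a median −log10 q of 6.09, against 440 bp, 3.74 and 3.15 for peaks with H4K8la only. Shared H4K16la peaks had medians of 546 bp, 4.23 and 4.62, against 407 bp, 3.69 and 2.67 for peaks with H4K16la only. The fold, as given by the authors for each peak, separated the classes less than the width did. Single-mark peaks were seldom the flank of a peak of the other mark. Of the peaks with H4K8la only, 6.91% had an H4K16la peak within 1 kb and the median gap was 14006 bp. For H4K16la only it was 8.75% and 10673 bp, beside a longer list of possible neighbours.

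At shared sites the 2 marks peaked close together. For each of the 17835 shared H4K8la peaks the nearest summit among its H4K16la partners lay a median of 156 bp away (quartiles 57 and 298), and 22.9% lay within 50 bp and 68.5% within 250 bp. The median signed offset along the chromosome was 0 bp. Offsets were not oriented by gene strand, so a shift relative to genes could not be seen. The distance shrank with strength. It was 203 bp where the weaker peak of the pair had −log10 q under 2, 127 bp from 5 to 10, 79 bp from 10 to 20 and 33 bp at 20 or more (95 pairs). At full length H4K8la and H3K9la in control gave a median of 160 bp and H4K16la and H3K9la one of 140 bp. At 1000 peaks each the medians were 51 bp for the H4 pair, 73.5 bp for H4K8la with H3K9la and 55 bp for H4K16la with H3K9la, so the order of the pairs differed with list length.

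**Figure D3:**
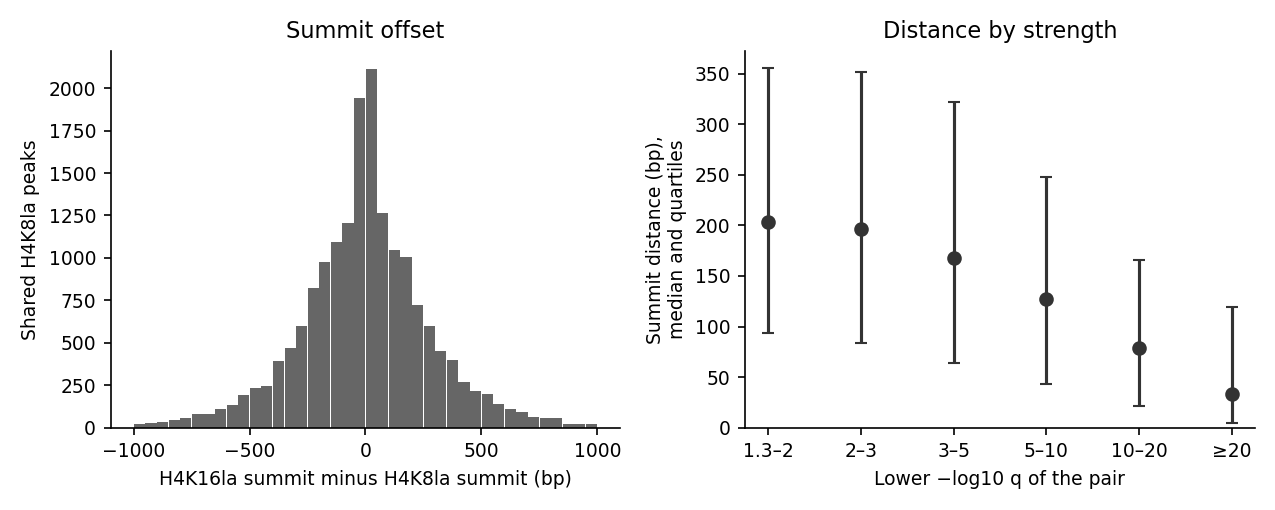
Left, number of shared H4K8la peaks by offset of the nearest H4K16la summit in 50 bp bins; right, median distance with quartiles (bars) by the lower −log10 q of the pair. Offsets are centred on 0 bp, and the median distance falls from 203 bp to 33 bp with rising strength.

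Most shared peaks overlapped in part, and H4K8la was more often the wider. Among the 17995 overlapping pairs the H4K16la peak lay inside the H4K8la peak in 35.7%, the H4K8la peak inside the H4K16la peak in 9.83%, and neither inside the other in 54.5%. The H4K8la peak was the wider in 69.0% of pairs, with a median log2 width ratio of 0.35 (quartiles −0.12 and 0.86), and at least 2 times wider in 19.8%, against 3.38% the other way.

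Enrichment at these pairs depended on the background used. The fold over local background was nearly even, with a median log2 ratio of 0.06 (quartiles −0.18 and 0.29) and H4K8la the higher in 56.4% of pairs. A fold at least 1.5 times higher for H4K8la was seen in 6.8% of pairs (1224) and for H4K16la in 3.36% (605). The summit pileup over the genome-wide background was higher for H4K8la in 77.6% of pairs, with medians of 15.2 and 11.1 times and a median log2 ratio of 0.40. The local background around the same pairs was higher for H4K8la too, by a median log2 ratio of 0.34. H4K8la thus stood higher over its genome-wide background than H4K16la, yet hardly higher over its own surroundings. The inferred genome-wide background was the lower for H4K8la, and its part in this difference was not tested. Across pairs the folds were related with a Pearson r of 0.49 on a log scale (Spearman rho 0.45) and the pileups over background with an r of 0.65 (rho 0.63). These are descriptions over 17995 pairs that share the 2 libraries, and neighbouring pairs are not independent.

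The strongest sites held by both marks were those for which the poorer of the 2 ranks was best. The site on chromosome 1 at 154403659 ranked first in both lists, with a fold of 19.8 and −log10 q of 122 for H4K8la, 19.4 and 135 for H4K16la, and summits 14 bp apart. It was followed by chromosome 1 from 209640372 to 209641470 (−log10 q 58.6 for H4K8la and 98.5 for H4K16la) and chromosome 3 from 2252209 to 2253145 (54.0 and 87.4). These last 2 sites lie where local background was 16.02 to 25.4 times the genome-wide one. The remaining 5 of the 8 were on chromosome 6 from 131704856 to 131705788, chromosome 7 from 9447655 to 9448599, chromosome 19 from 33716492 to 33717265, chromosome 16 from 74758816 to 74760357 and chromosome 1 from 155056805 to 155057458, with −log10 q of 33.5 to 47.6 for H4K8la and 33.6 to 38.9 for H4K16la. Summits of the 8 lay 4 to 195 bp apart, and all 8 carried a peak in each of the other 4 lists.

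Some strong sites were led by a single mark although both had a peak. On chromosome 1 the H4K8la peak from 194919121 to 194920731 had a fold of 8.76 and rank 25, while its H4K16la partner had a fold of 2.89 and rank 33040. That pair had a log2 fold ratio of 1.60, and its H4K16la peak covered the right edge only, 1247 bp from the H4K8la summit. The next ratios were both on chromosome 4, 1.48 at 168002954 to 168004065 (summits 294 bp apart) and 1.44 at 154332515 to 154333667 (773 bp apart). Then came 1.26 on chromosome 1 from 34988703 to 34989543. On the last of these the summits were 1 bp apart, with a fold of 10.2 for H4K8la and 4.24 for H4K16la. H4K16la led on chromosome 18 from 72945605 to 72946676 (log2 ratio −1.41, folds 7.49 and 2.82, summits 423 bp apart). It also led on chromosome 15 from 33805941 to 33806818 (−1.23, summits 659 bp apart). Next were chromosome 8 from 33774660 to 33774991 (−1.22) and chromosome 5 from 141535027 to 141536218 (−1.21). The site on chromosome 8 had its summits at the same base, and its H4K16la fold was 8.00 against 3.44 for H4K8la. On chromosome 5 the peaks met only at their edges, with summits 622 bp apart. These 8 pairs were picked as the extremes of 4607 pairs with −log10 q of at least 10 in either list, whose median log2 fold ratio was 0.17.

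The strongest peaks found for H4K8la only were led by chromosome 2 from 73364903 to 73365370, with a fold of 13.2 and −log10 q of 25.8. The nearest H4K16la control peak was 1388364 bp away, and no other library of the series had a peak there. The next, on chromosome 2 from 150536679 to 150537403 (fold 8.44, −log10 q 23.1), had a peak in all 4 remaining libraries, so that among the 6 only H4K16la control lacked it. On chromosome 13 from 43770845 to 43771550 (5.29, 21.3) an H4K16la control peak lay 874 bp away, and none of the other 4 lists had a peak. The sites on chromosome 7 from 19229658 to 19230296 (6.98, 21.7) and chromosome 1 from 95938985 to 95939790 (4.22, 21.5) had peaks in both H3K9la libraries and in H4K8la lactate but in neither H4K16la library. The remaining 3 were on chromosome 12 from 1678980 to 1680456, chromosome 1 from 88467668 to 88468634 and chromosome 15 from 20788420 to 20789780, with −log10 q of 20.8 to 21.2. Of the 8, H4K8la lactate had a peak at 6 and H4K16la lactate at 4, H3K9la control at 5 and H3K9la lactate at 4.

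Peaks found for H4K16la only were led by chromosome 3 from 2231828 to 2233735, with a −log10 q of 27.7 but a fold of 2.11, in a stretch where local background was 100.4 times the genome-wide one. An H4K8la peak lay 6024 bp away, and all 4 other lists had a peak there. Next came chromosome 4 from 160476990 to 160477834 (fold 7.79, −log10 q 19.0), which like chromosome 2 from 27183143 to 27183582 (8.65, 16.4) had a peak in both H3K9la libraries and in H4K16la lactate but in neither H4K8la library. The peak on chromosome 19 from 51575078 to 51575954 (7.47, 17.3) was found in H4K16la control alone. The others were on chromosome 8 from 58661891 to 58662528, chromosome 19 from 34245215 to 34245954, chromosome 4 from 117908891 to 117909183 and chromosome 2 from 183472032 to 183472698, with −log10 q of 15.3 to 16.3. Of these 8, H4K16la lactate had a peak at 7 and H4K8la lactate at 5. H3K9la control also had one at 7 and H3K9la lactate at 6, so H4K16la lactate did not stand out.

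The lists that played no part in the split were used to ask whether a single-mark peak came back with its own mark. Over all strengths most did not come back with any, while most strong ones did. Of the peaks with H4K8la only, 55.2% (24022 of 43512) were found in none of the other 4 lists, as were 60.0% (13690 of 22819) of those with H4K16la only. For shared peaks, which are stronger, the shares were 7.22% and 7.52%. With −log10 q of 10 or more, 42 of the 629 strong peaks with H4K8la only (6.68%) and 5 of the 74 with H4K16la only (6.76%) were in none, against 18 of 3836 and 1 of 2036 shared peaks. A peak in all 4 other lists was seen at 39.0% of shared H4K8la peaks, but also at 1399 peaks with H4K8la only, which H4K16la control alone lacked, and at 423 peaks with H4K16la only, which H4K8la control alone lacked.

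The peaks with H4K8la only were found most often in H3K9la control, at 27.7% (27.3 to 28.2), and less often in H4K8la lactate, at 15.6% (15.3 to 15.98), or H4K16la lactate, at 20.3% (20.0 to 20.7). These lists differ in length, with 61850, 42787 and 62563 peaks. With each held to its 40681 strongest peaks the shares were 21.4%, 15.3% and 14.9%. H3K9la control, a mark of another histone in the same condition, thus matched the peaks with H4K8la only more often than H4K8la itself did with lactate. Among stronger peaks and at equal list lengths H4K8la lactate matched more often than H4K16la lactate, but not more often than H3K9la control. At −log10 q of 5 or more H4K8la lactate held 36.9% and H4K16la lactate 30.6%. At full length the order there was the reverse, 37.3% and 38.8%. At −log10 q of 10 or more and equal list lengths, 64.5% of the 629 peaks with H4K8la only were found in H4K8la lactate and 47.5% in H4K16la lactate. There 187 were in the first and not the second, and 80 the reverse. H3K9la control held 69.2% (65.4 to 72.6) of the same peaks and H3K9la lactate 56.4%. Shared H4K8la peaks of that strength leaned the same way, with 92.3% in H4K8la lactate and 87.6% in H4K16la lactate, so the lean was not limited to single-mark peaks.

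The peaks with H4K16la only were found more often in H4K16la lactate than in H4K8la lactate at all 3 strengths compared. At full length 21.5% (21.01 to 22.1) were found in H4K16la lactate and 11.04% (10.6 to 11.5) in H4K8la lactate, and with equal lengths 15.9% and 10.7%. At −log10 q of 5 or more and equal lengths the shares were 39.9% and 26.8%, and at 10 or more 77.0% and 50.0% of 74 peaks. H3K9la control was near H4K16la lactate over all these peaks, at 14.7%, and at 5 or more, at 36.6%, and held 62.2% (50.8 to 72.4) at 10 or more. Shared H4K16la peaks, taken as a background, were found in the lactate lists of both marks alike with equal lengths, at 62.1% and 62.6%. At full length they too were found more often in H4K16la lactate, at 69.2% against 62.9% in H4K8la lactate. With equal lengths the tilt towards H4K16la lactate was seen in the single-mark peaks, and its difference from the shared peaks was not tested.

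**Figure D4:**
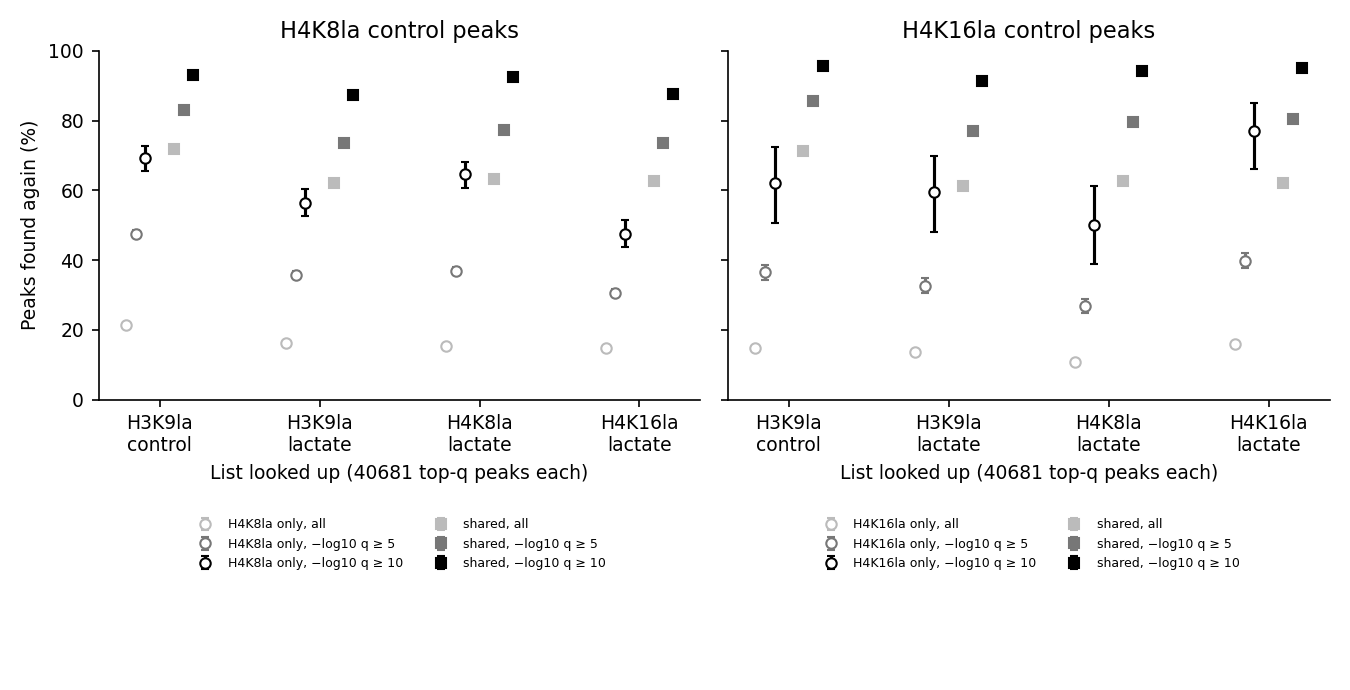
Share of control peaks (%) found again in each of the other 4 lists, each held to its 40681 strongest peaks; open circles are single-mark peaks, filled squares shared peaks, darker shades stronger peaks, and bars Wilson 95% intervals. Among the strongest single-mark peaks, H4K8la returns at 64.5% in H4K8la lactate against 47.5% in H4K16la lactate, and H4K16la at 77.0% in H4K16la lactate against 50.0% in H4K8la lactate.

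The position of the H4 pair among the control pairs changed with list length. At 40681 peaks each, H4K8la shared 39.2% (38.8 to 39.7) of its peaks with H4K16la and 48.02% (47.5 to 48.5) with H3K9la, although H3K9la is on another histone. At 5000 peaks each the order was the reverse, 45.9% (44.5 to 47.3) with H4K16la and 39.0% (37.6 to 40.3) with H3K9la, and at 1000 peaks 40.4% (37.4 to 43.5) and 30.6% (27.8 to 33.5). The strongest H4K8la sites thus coincided more with the strongest H4K16la sites than with the strongest H3K9la sites. The longer H4K8la list coincided more with H3K9la, and each of these differences was beyond counting error. At 40681 peaks H4K16la did not show this order, with 39.4% shared with H4K8la and 39.5% (39.0 to 40.0) with H3K9la. At 5000 peaks its shares were 45.9% and 38.2%. Looked up in 40681 peaks of H4K16la or of H3K9la, strong H4K8la peaks were found more often in H3K9la. At −log10 q of 10 or more, 3836 of 4465 H4K8la peaks had an H4K16la partner. The 40681 strongest H3K9la control peaks overlapped 3572 of these 3836 and 435 of the 629 others. At 5000 peaks H4K8la shared 48.4% with its own lactate library and H4K16la shared 45.4% with its own, so the H4 marks overlapped each other about as much as each overlapped itself across conditions. These pairs share libraries and are set side by side without a test.

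**Figure D5:**
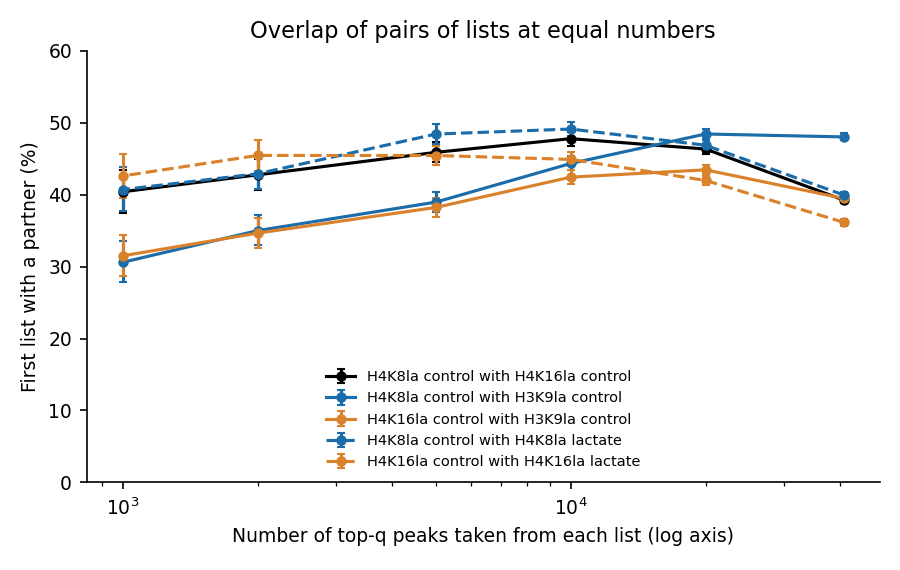
Share of the first list of a pair (%) with a partner in the second, at equal numbers of top-q peaks (log axis), with Wilson 95% intervals; solid lines are pairs of control lists and dashed lines the same mark across conditions. The H4K8la and H4K16la pair (black) runs above both pairs with H3K9la at 10000 peaks and fewer and below H4K8la with H3K9la at 40681.

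Over the full lists the marks were spread nearly alike along the chromosomes. On chromosomes 1 to 20 the log2 ratio of the 2 list shares, H4K8la over H4K16la, ran from −0.06 (chromosome 7) to 0.05 (chromosome 6). Among the 10000 strongest peaks of each list the range was wider, from −0.19 (chromosome 17) to 0.22 (chromosome 13). Chromosome X held 2.28% of H4K8la peaks (1399) and 2.48% of H4K16la peaks (1007), a log2 ratio of −0.12 (−0.24 to −0.0015), which was 0.05 once peaks in local background of 4 times or more were left out. Chromosome Y had 8 and 4 peaks. Sharing was highest on chromosome 10, at 32.8% of H4K8la and 50.1% of H4K16la peaks, and lowest among the numbered chromosomes on chromosome 15, at 25.7% and 40.0%. On X it was 18.7% (16.7 to 20.8) and 26.3% (23.7 to 29.1), below each of the 20 numbered chromosomes. Low overlap on X was not limited to this pair, since 18.7% of H4K8la peaks on X were found in H4K8la lactate, against 29.6% of the whole list.

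The agreement of the marks depended on the scale. In windows of 1 Mb the peak numbers of the marks were related with a Pearson r of 0.93 (Spearman rho 0.94, 2573 windows with a peak), with a median of 22 H4K8la and 15 H4K16la peaks a window. In windows of 100 kb r was 0.57 (rho 0.57, 19318 windows), and 74.1% of windows held both marks. In windows of 10 kb 30.5% of 69932 windows held both, 31824 held H4K8la alone and 16753 held H4K16la alone. There r was −0.30 and rho −0.37 over the windows with a peak, most of which held a single mark. Where windows hold few peaks, leaving out the empty ones pulls r and rho towards negative values. These 2 values therefore do not show whether the marks avoid each other. The windows at each scale leave out those without a peak, and they share the 2 libraries and the mappable sequence. The marks thus occupied the same broad parts of the genome, while most single positions were called for 1 of them.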

How the data were processed

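Each library has its own deposited narrow peak list, so peaks were called per library. The submitters' processing notes name MACS2, Bowtie2, cutadapt, FastQC and deepTools and the build rn7, without versions or settings. Any role of an IgG control in the calling is likewise not stated there. The authors' fold column is a ratio of summit pileup to local background, their −log10 p and −log10 q columns are the caller's statistics (lowest −log10 q 1.30 in both lists), and their score is a whole number made from −log10 q. Positions and summit offsets are as deposited. The 4 other lists served for look-ups. Peaks were ranked by −log10 q. Summit pileup and local background were solved from fold and −log10 p, assuming a Poisson tail and (pileup + 1) over (background + 1), within 0.002, for all peaks of both lists. The most frequent local background was taken as genome-wide coverage. This reading is inferred from the values. Read totals were not used. Intervals cover counting error only, since neither PCR copies nor overlapping fragments are independent. Members, named-peak rules (8 strongest without partner per mark, 8 shared pairs by poorer rank, 4 extreme fold ratios per direction, 3 widest per list) and comparisons were chosen with earlier results of these data known. The overlap and pileup code was tested on simulated data. Python 3.11.15, numpy 2.4.6, pandas 2.3.3, scipy 1.17.1 and matplotlib 3.10.9 were used. Genes and sequences were not analysed here, as the available gene table is of another build (GRCr8).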

Additional observations from a re-analysis of the deposited data

Results flagged for a closer look

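The contrast between the H4 marks had opposite signs without and with lactate in 5 measures, each from 1 library per mark and condition. The difference between conditions was not tested. The log2 ratio of peak numbers, H4K8la over H4K16la, was 0.59 in control and −0.55 with lactate. For covered bases it was 0.80 and −0.46, and for peaks at −log10 q of at least 10 it was 1.08 and −0.92. The median width difference, H4K8la minus H4K16la, at 40681 top-q peaks each was 123 bp in control and −13 bp with lactate. The log2 ratio of list shares on chromosome X was −0.12 in control and 0.28 with lactate. The background coverage of the lactate libraries was 1.55 for H4K8la and 2.84 for H4K16la, against 1.32 and 1.53 in control, and the part of this background in these reversals was not tested. At full list length the median width difference kept its sign, with 38 bp in control and 28 bp with lactate, as did the median log2 fold ratio at shared peaks, with 0.06 and 0.14.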

How the results depend on the processing

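Of 57 alternative values for 9 results, 1 stayed within its counting interval, 51 moved beyond it and 5 changed sign; the cause was not tested. The intervals are narrow because the lists are long. The share of H4K8la peaks shared, 29.1%, and that of H4K16la, 43.9%, became 26.0% and 39.4% with an overlap of 50% of the shorter peak, 20.0% and 30.1% with summits within 250 bp, 17.4% and 26.2% with 200 bp around each summit, 30.2% and 46.5% at −log10 q of at least 2, 34.0% and 64.0% at 5, and 29.7% and 62.7% at 10. With equal numbers they were 39.2% and 39.4%, 36.4% and 36.6% when ranked by fold, 47.8% and 47.8% at 10000, 45.9% and 45.9% at 5000 (added after seeing the data), and 40.4% and 40.4% at 1000. The log2 ratio of peak numbers, 0.59, was 0.62, 0.91 and 1.08 at −log10 q of at least 2, 5 and 10, 0.80 for covered bases and 0.54 with peaks within 1 kb merged. It was 0.66 with pileups scaled to 1 background at −log10 p of at least 4, where the unscaled ratio was 0.55. On chromosomes 1 to 20 it was 0.60, and 0.40 without peaks in local background of 4 times or more, a setting added after seeing the data. The median width difference, 38 bp, was 123 bp at equal numbers, 261 bp at 10000, 239.5 bp at 1000, 144 bp at −log10 q of at least 5 and 19 bp without raised local background. The median summit distance, 156 bp, was 151 bp at equal numbers, 108 bp at 10000, 51 bp at 1000, 113 bp at −log10 q of at least 5 and 143 bp with an overlap of 50%. The median log2 fold difference, 0.06, was 0.094, 0.077 and 0.047 at these 3 list lengths, 0.0018 at −log10 q of at least 5, and 0.40 for summit pileup. Return of peaks with H4K8la only in H4K8la lactate minus that in H4K16la lactate was −4.70 percentage points and changed sign to 0.42 at equal numbers, 7.15 at −log10 q of at least 10, and, in settings added later, 6.36 and 17.0 at equal numbers with −log10 q of at least 5 and 10; at 5 and full length it was −1.47. For peaks with H4K16la only, own mark minus other mark was 10.5 points, and 5.14, 19.9, 27.0, 13.0 and 27.0 under equal numbers, 5, 10, and both together. The X ratio, −0.12, was −0.25 at 10000 peaks and changed sign to 0.053 without raised local background, a setting added later. No paired analysis was possible because each group has 1 library and the result comes from no test.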
